A study of Mus musculus with 6 samples.

Results

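Cholesterol synthesis was followed through 8 mouse genes in tumors that grew from Hepa1-6, a mouse hepatoma cell line, under the skin of female C57Bl/6 mice. The genes were Hmgcs1, Idi1, Fdps, Fdft1, Sqle, Lss, Dhcr7 and Srebf2, and a probe belonged to the group where its gene name on the array was that of one of the 8. This gave 19 of the 41174 non-control probes, which carry 27573 gene names. Of the 19 probes, 18 were well above background often enough to be tested against the reference and 17 between the days, and at least 1 probe of every gene passed. Although the group was proposed as synthesis and uptake genes, 7 of its genes encode enzymes of synthesis, Srebf2 encodes a transcription factor, and none encodes an uptake receptor.

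Cholesterol is built from acetyl-CoA through mevalonate, isoprenoid diphosphates, squalene and lanosterol. SREBP2, the product of Srebf2, is held in the endoplasmic reticulum when sterols are plentiful. When they are scarce it is cut, enters the nucleus and activates the genes of this route and its own gene. The liver is a main site of this synthesis.

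The tumors were removed 15 days after Hepa1-6 cells had been placed under the skin (tumors 303, 313 and 318) or 10 days after it (tumors 302, 307 and 312). Each tumor had an array of its own, with tumor RNA in the dye Cy5 and, in Cy3, total RNA labelled as blood of an untreated C57Bl/6 female. A log2 ratio is the log2 of Cy5 over Cy3, without a dye swap, so a dye bias of a probe remains in it. The labels name no step that removed host cells from the tumors, and they do not tie the tumors to animals. Every p-value here reflects only how far these 6 samples differ. As the reference had the same description on every array, p-values against it cannot be taken to cover spread between reference samples.

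Between 52.4% and 58.5% of the spots of an array were well above background in Cy5 and 47.5% to 52.8% in Cy3, and 6 arrays limit the precision of every value here. The day 15 arrays shared 1 slide and the day 10 arrays another, so slide and day cannot be told apart. In the tumors, 7 of 12 hepatocyte and hepatoma marker genes were well above background in Cy5 on all 6 arrays, Alb, Afp and Gpc3 among them. In the reference, the Cy3 of all 6 arrays passed the same mark for 9 of 12 genes of that list, Afp and Hnf4a among them. Of 6 red cell genes, 3 passed it in Cy3 on all 6 arrays and 3 on none, Slc4a1 and Ank1 among those 3. Of 7 blood leukocyte and platelet genes, 2 passed on all 6 arrays and 2 on none, with S100a8 among those 2. The channel labelled as blood thus held hepatocyte and hepatoma markers and only some markers of blood, and it is called the reference below. On the array of tumor 312, an area with 6160 spots (13.7% of the array) had lost signal, and 3 of the 19 probes lay in it, one each of Hmgcs1, Fdft1 and Srebf2. Tumor 313 stood apart from the others in its hepatoma markers, as described with its values further on.

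The promoters of the route are shown first, and a link between their motifs and the values in the tumors was not tested. RefSeq sequence of the 250 bases before a gene's start was at hand for 5 of the 8 genes (build GRCm38.p6), and the windows of the 4 with 1 start each are printed 5′ to 3′. Capitals mark CCAAT, the letters bound by the factor NF-Y, read on either strand, and TCACNCCAC or its shorter overlapping form TCACCCCA, letters of the sterol regulatory element to which SREBPs bind. The windows are chr13:119690101-119690350 for Hmgcs1, chr13:8885356-8885605 for Idi1, chr10:76531355-76531604 for Lss and chr15:82147019-82147268 for Srebf2, all on the plus strand.
Hmgcs1: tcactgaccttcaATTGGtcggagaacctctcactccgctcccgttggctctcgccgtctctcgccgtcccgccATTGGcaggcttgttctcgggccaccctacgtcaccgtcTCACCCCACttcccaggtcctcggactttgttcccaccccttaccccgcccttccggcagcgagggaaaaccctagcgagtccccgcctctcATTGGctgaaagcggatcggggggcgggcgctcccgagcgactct
Idi1: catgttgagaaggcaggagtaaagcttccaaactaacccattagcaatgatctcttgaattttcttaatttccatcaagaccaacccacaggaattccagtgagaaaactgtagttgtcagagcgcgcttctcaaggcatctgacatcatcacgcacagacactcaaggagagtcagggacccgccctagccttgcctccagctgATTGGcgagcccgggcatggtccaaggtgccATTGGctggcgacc
Lss: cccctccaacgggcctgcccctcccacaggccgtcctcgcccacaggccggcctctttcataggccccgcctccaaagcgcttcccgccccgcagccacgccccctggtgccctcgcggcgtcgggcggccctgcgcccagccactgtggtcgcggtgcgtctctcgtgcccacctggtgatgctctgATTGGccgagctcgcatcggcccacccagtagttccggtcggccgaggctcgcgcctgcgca
Srebf2: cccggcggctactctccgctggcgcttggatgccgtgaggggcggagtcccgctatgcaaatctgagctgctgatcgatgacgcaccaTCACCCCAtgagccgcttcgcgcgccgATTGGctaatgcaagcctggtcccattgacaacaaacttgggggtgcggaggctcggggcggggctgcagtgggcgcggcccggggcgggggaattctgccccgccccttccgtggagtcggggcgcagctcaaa
TCACNCCAC occurred in 1 of the 5 genes, Hmgcs1, where it lay 137 to 129 bases before the start. Of 27025 mouse genes with windows of this length, 1.22% held it on either strand in at least 1 window. The shorter TCACCCCA, which was added after the windows had been read, occurred in Hmgcs1 and in Srebf2, where it lay 162 to 155 bases before the start, and in 1.54% of all genes. CCAAT was present in a window of each of the 5 genes, against 37.5% of all genes. Also present in a window of all 5 was GGGCGG, the letters bound by the factor SP1, which 35.4% of all genes held and which is not in capitals. In Dhcr7, which has 3 annotated starts, CCAAT stood before 1 of them.

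Against the reference, all 8 genes were below 0 on average in the tumors, and Idi1, Sqle, Lss and Dhcr7 were lower by 2.06- to 3.88-fold. The test was limma's moderated test over 24252 probes with Benjamini-Hochberg adjustment, and a gene is called where its adjusted p is under 0.05 and its log2 ratio is at least 1 in size. A gene is represented by its probe of highest mean intensity. By this rule 4 of the 8 genes were lower in the tumors (Idi1, Sqle, Lss and Dhcr7) and 0 were higher, where 9.76% of the 16301 genes tested were lower and 25.5% higher. Without regard to size, all 8 were lower at an adjusted p under 0.05, against 32.1% of all genes lower and 48.5% higher. That count was 6 without tumor 302 and 6 without tumor 307, where Sqle and Srebf2 missed the threshold, and 7 with the probes of a gene averaged, where Fdps did. Of 10 cell cycle genes, 7 were called lower and 0 higher, with a median of -1.30, and their part in the values of the 8 genes was not tested. The median log2 ratio of the 8 was -0.86, beside 0.22 for all genes tested. The count called was 2 without tumor 302 and 2 without tumor 307. It was 5 with the scanner's processed signals and with the value table, where Fdft1 was added, and 3 with the probes of a gene averaged. It was 8 when arrays were centred on their median without loess, a scaling that put the median of all genes at -0.34. Over the whole array, 5350 probes were higher than the reference and 2642 lower, and under median centring 4182 were higher and 6873 lower. In bulk tissue, fewer cells of a type and less RNA per cell cannot be told apart.

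**Figure D1:**
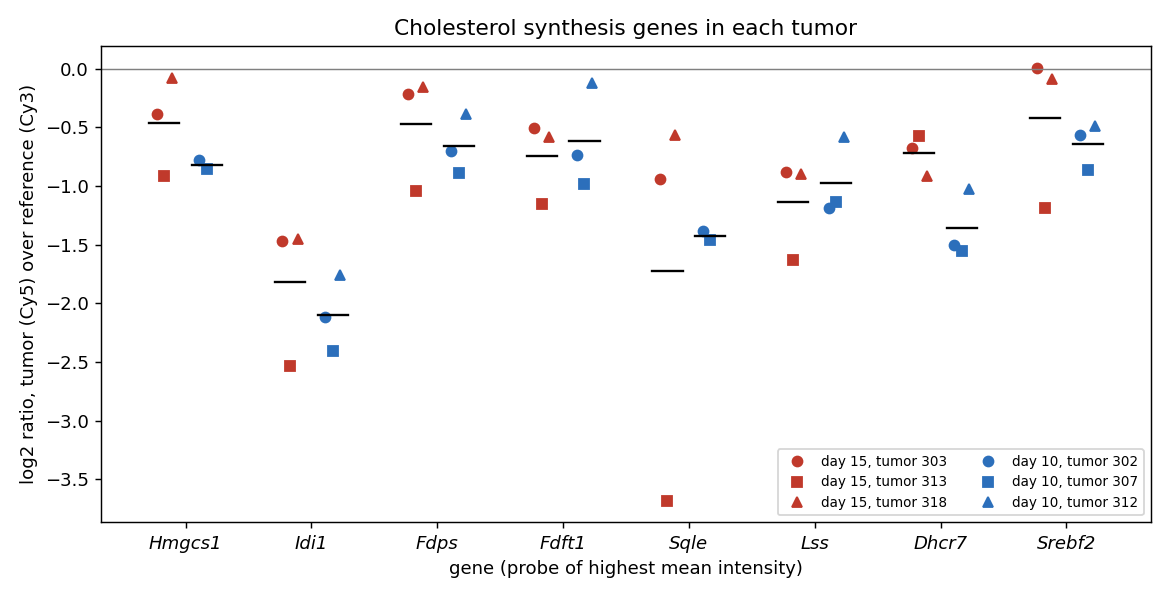
Log2 ratio of tumor (Cy5) over reference (Cy3) of the 8 genes in each tumor, day 15 in red and day 10 in blue, with a horizontal bar at the mean of each day. All points but Srebf2 in tumor 303 lie below 0, Sqle in tumor 313 is the lowest point at -3.68, and only in Dhcr7 do all day 15 points lie above all day 10 points; Hmgcs1 and Sqle have no value in tumor 312.

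Hmgcs1 encodes cytosolic HMG-CoA synthase, an early enzyme of the mevalonate route. Its log2 ratio was -0.38, -0.92 and -0.08 in day 15 tumors 303, 313 and 318, and -0.78 and -0.86 in day 10 tumors 302 and 307. Its spot on the array of tumor 312 carried an outlier mark and was left out. The value of tumor 313 lay below and those of 303 and 318 above the day 10 values, so the days overlapped. The average of the means of the days, which weights the days equally here and below, was -0.64 (SE 0.14), with an adjusted p of 0.00682 in limma, under the size asked of a call. The other probes of the gene differed in size, at -0.23 for one and -0.93 for one in the lost area, which gave -1.15 without that array's spot.

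Idi1 encodes isopentenyl-diphosphate isomerase, which supplies the starter unit of isoprenoid chains. Its log2 ratio was -1.47, -2.54 and -1.45 in day 15 tumors 303, 313 and 318, and -2.12, -2.41 and -1.76 in day 10 tumors 302, 307 and 312. Every tumor was more than 1 log2 unit below the reference, and tumors 303 and 318 were the least low, while 313 lay below all of day 10, so the days overlapped. The mean over the tumors was -1.96 (SE 0.17, limma adjusted p = 7.48e-05), or 3.88-fold lower than the reference. A further probe of Idi1 gave -2.38.

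Fdps encodes farnesyl diphosphate synthase, at the branch point between sterols and other isoprenoids. Its log2 ratio was -0.22, -1.04 and -0.15 in day 15 tumors 303, 313 and 318, and -0.70, -0.89 and -0.39 in day 10 tumors 302, 307 and 312. The lowest tumor was of day 15 and so were the highest, and the days overlapped. With a mean of -0.57 (SE 0.14, limma adjusted p = 0.00823), it was below the reference but short of the size asked of a call, and its other probe gave -0.17 with an adjusted p of 0.361.

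Fdft1 encodes squalene synthase, the first enzyme committed to sterols. Its log2 ratio was -0.51, -1.15 and -0.58 in day 15 tumors 303, 313 and 318, and -0.73, -0.99 and -0.12 in day 10 tumors 302, 307 and 312. Tumor 313 was the lowest again, and the highest value, in tumor 312, came from a spot in the lost area; the days overlapped. The mean of -0.68 (SE 0.14, limma adjusted p = 0.00398) became -0.80 without that spot. A second probe was not above background often enough to be tested.

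Sqle encodes squalene epoxidase, which adds oxygen to squalene. Its log2 ratio was -0.94, -3.68 and -0.56 in day 15 tumors 303, 313 and 318, and -1.38 and -1.46 in day 10 tumors 302 and 307. The spot of tumor 312 was marked as an outlier and left out. Tumor 313 was 2.60 log2 units below the mean of the other 4, which kept within 1 unit of each other, so day 15 lay on both sides of day 10. The mean over both days was -1.57 (SE 0.47), or 2.98-fold lower, with a limma adjusted p of 0.0235. Without tumor 313 it was -1.09 with an adjusted p of 0.000521, whereas the call was lost without tumor 302, at -1.59 (adjusted p = 0.0801), and without tumor 307, at -1.56 (adjusted p = 0.0865).

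Lss encodes lanosterol synthase, which closes the sterol rings. The tumors of day 15 had log2 ratios of -0.88, -1.63 and -0.89 (303, 313 and 318), and those of day 10 had -1.19, -1.14 and -0.58 (302, 307 and 312). All were below the reference, tumor 313 the most and tumor 312 the least, and the days overlapped. The mean was -1.05 (SE 0.14, limma adjusted p = 0.000441), a 2.07-fold lower level, and the other 2 probes gave -1.16 and -0.98. Close to the size limit, it fell short of it without tumor 313 at -0.93 and without tumor 302 at just under 1.

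Dhcr7 encodes 7-dehydrocholesterol reductase, the last enzyme of one branch to cholesterol. The tumors of day 15 had log2 ratios of -0.68, -0.57 and -0.91 (303, 313 and 318), and those of day 10 had -1.51, -1.55 and -1.02 (302, 307 and 312). All 3 tumors of day 15 were above all 3 of day 10, and tumor 313, the lowest for the other 7 genes, was here the highest. Against the reference the mean was -1.04 (SE 0.10, limma adjusted p = 0.000107), a 2.06-fold lower level. Its second probe gave -0.59, and without tumor 307 or without tumor 318 the mean was -0.99, just short of the size asked of a call.

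Srebf2 encodes the precursor of SREBP2. The tumors of day 15 had log2 ratios of 0.01, -1.18 and -0.08 (303, 313 and 318), and those of day 10 had -0.57, -0.86 and -0.49 (302, 307 and 312). Tumors 303 and 318 were the closest to 0 and tumor 313 was the lowest, so day 15 lay on both sides of day 10. The mean of -0.53 (SE 0.17, limma adjusted p = 0.0233) was short of the size asked of a call. It was -0.34 without tumor 313, and its adjusted p was 0.0540 without tumor 302 and 0.0757 without tumor 307. The other 3 probes gave -0.27, -0.60 for one in the lost area, and -0.68 for one whose Cy5 was not well above background on any array. For that last probe the tumor signal was at least 1.504-fold lower, counted from the dimmest probe that passed the background mark, and this bound is open to dye bias.

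Between the days, no difference passed the test in any of the 8 genes. The test was limma's over 23070 probes with Benjamini-Hochberg adjustment, and 0 of the 8 genes passed an adjusted p of 0.05 in either direction, where 0.0127% of the 15780 genes tested were higher and 0.0444% lower at day 15. All 8 had an adjusted p of 1.0. At an unadjusted p under 0.05, 1 of the 8 was higher at day 15 and 0 were lower, against 2.43% and 1.57% of all genes, and with the signal of Cy5 alone 0 of the 8 had an adjusted p under 0.05.

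The 1 gene was Dhcr7, which averaged -0.72 ± 0.17 at day 15 and -1.36 ± 0.29 at day 10 (SD, n = 3 each). The difference of day 15 minus day 10 was 0.64 on the log2 scale (95% interval 0.17 to 1.11, limma unadjusted p = 0.0154). Of all genes, 5.06% had day 15 values all above the day 10 values, and 3.79% all below them. The second Dhcr7 probe differed by 0.15 (unadjusted p = 0.305).

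For the other genes the intervals took in differences of either sign. Idi1 averaged -1.82 ± 0.62 at day 15 and -2.10 ± 0.32 at day 10 (SD, n = 3 each), a difference of 0.28 with a 95% interval of -0.54 to 1.1. The interval of Hmgcs1 was -0.34 to 1.06, that of Fdps -0.48 to 0.86 and that of Srebf2 -0.59 to 1.03. That of Fdft1 was -0.82 to 0.55 and that of Lss -0.83 to 0.49. Sqle was the least certain, with -2.68 to 2.07. With 3 tumors a day, the interval of each of these genes was wider than 1 log2 unit.

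Tumor 313 weighed on each of these day differences. With it, 5 of the 8 differences were above 0 (Hmgcs1, Idi1, Fdps, Dhcr7 and Srebf2), of which all but Dhcr7 were below 0 under median centring without loess. That scaling moved the median difference of all genes from 0.024 to -0.30. Leaving it out, the lowest tumor of 7 of the 8, raises the day 15 means of those 7 by construction, and with 2 tumors then left at day 15 all 8 differences were above 0, as were 55.8% of all genes. So were 13 of 13 further cholesterol synthesis enzymes, 10 of 10 cell cycle genes, 11 of 11 fatty acid synthesis genes and 10 of 12 hepatocyte and hepatoma markers. The differences without tumor 313 ran from 0.071 in Fdft1 to 0.67 in Sqle, and 0 of the 8 passed the adjustment over all probes, the smallest adjusted p in limma being 0.923.

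Most of the 8 genes had a like profile over the 6 tumors, with a low value in tumor 313 that other lists shared. Tumor 313 was the lowest for 7 of the 8 genes and for 13 of the 17 probes, where it was the lowest for 30.2% of all genes tested between the days. It was also the lowest for 10 of 10 cell cycle genes and 11 of 12 hepatocyte and hepatoma markers. Tumor 318 was the highest for 4 of the 8, and the share of all genes highest there was not counted. The median log2 ratio of the 8 genes was -0.59, -1.17 and -0.57 in day 15 tumors 303, 313 and 318, and -0.98, -1.06 and -0.54 in day 10 tumors 302, 307 and 312. Tumor 312, with 2 values missing and 1 in the lost area, rests on fewer sound spots than the others.

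Likeness was measured as the root mean square difference between profiles after each gene had been centred on its own mean. Fdps lay closest to the median profile of the other members, at 0.046 log2 units, followed by Idi1 at 0.10, Srebf2 at 0.13 and Hmgcs1 at 0.14. Lss and Fdft1 stood at 0.21 and 0.23, and Dhcr7 at 0.48 and Sqle at 0.83. The members' profile was also compared with 9480 genes that were well above background in both dyes on all 6 arrays. Their median was 0.40, which 6 of the 8 members stayed within. By definition as many of the compared genes lie within that median as beyond it, so this count does not set the members apart. Each member was also set against the other members only, and each compared gene against all 8. The members themselves were not held to that filter, which Fdft1 did not pass. In tumor 313 Dhcr7 was above its own mean, and Sqle was far below its own.

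**Figure D2:**
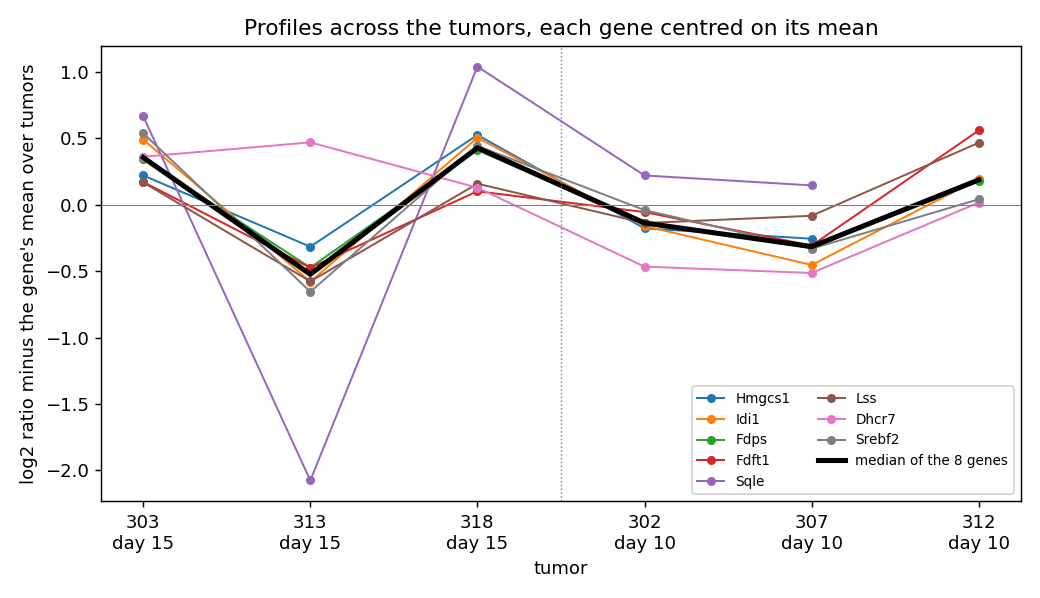
Log2 ratio of each gene minus its own mean over the tumors (vertical axis, log2 units) by tumor, day 15 left of the dotted line and day 10 right of it, with the median of the 8 genes in black. Most lines dip in tumor 313 and, less, in tumor 307, Sqle drops to -2.08 in tumor 313, and Dhcr7 is above its mean there at 0.47.

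Of the 9480 genes compared, Nup85 at 0.053 and Mtmr11 at 0.057 were closest to the median profile of the members. Next were Haus6 at 0.066, Id3 at 0.067 and Cyp51 at 0.069. Nup85 encodes a nuclear pore protein, Haus6 a subunit of a spindle complex and Id3 an inhibitor of basic helix-loop-helix factors. Cyp51 encodes lanosterol demethylase, the enzyme after lanosterol synthase. The measure rests on 6 tumors that share their reference RNA.

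The low values of tumor 313 came from its Cy5 channel. For Sqle, the log2 signal was 11.01 in Cy5 on the array of tumor 313 and between 13.12 and 13.99 on those of the 4 other tumors measured. In Cy3 it was 14.69 on that array and 14.50 to 14.65 on the others. The Cy5 signal of tumor 313 was also below the mean of the other arrays by 0.66 log2 units in Idi1, 0.83 in Lss and 0.69 in Srebf2, while for those genes Cy3 differed by at most 0.13. For Dhcr7 the Cy5 signal was 0.45 above the mean of the other arrays.

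**Figure D3:**
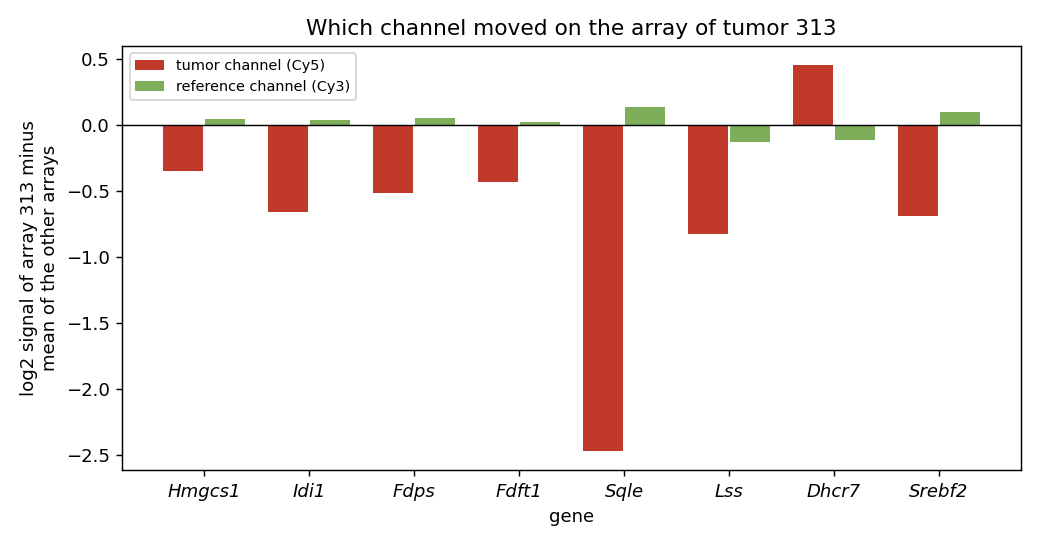
Log2 signal of each dye on the array of tumor 313 minus its mean over the other arrays (vertical axis, log2 units), with spots of the lost area of tumor 312 left out; red bars are tumor (Cy5) and green bars the reference (Cy3). The red bars run below 0 in all genes but Dhcr7 and reach -2.47 in Sqle, while the green bars stay within 0.14 of 0.

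Other genes were low in tumor 313 as well. The median log2 ratio of the 12 hepatocyte and hepatoma markers was -2.31 in tumor 313 and between 1.96 and 3.1 in the other 5, and 11 of the 12 were lowest there. Alb was at -2.48 in tumor 313 and at 2.26 to 3.06 elsewhere, while Gpc3, of the same list, was at 5.13 there and at 4.73 to 5.48 elsewhere. All 10 cell cycle genes were lowest in tumor 313, with a median of -2.16 there and of -1.57 to -0.43 in the others. The median of the 8 macrophage markers was 5.53 in tumor 313 and 5.0 to 5.52 in the others. The part that these differences in makeup have in the values of the 8 genes was not tested. Marker lists also differed between the days. Of the muscle markers, 6 of 7 were called lower at day 15, with medians of -0.14 to 0.02 at day 15 and 3.55 to 4.18 at day 10. At an unadjusted p under 0.05 with none called stood 5 of 6 endothelial, 4 of 7 T and NK cell and 3 of 6 fibroblast markers, with median differences of 0.79, -0.53 and 0.61. The part of these lists in the day differences was not tested.

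The remaining enzymes of the route had a like spread against the reference. Of 13 further cholesterol synthesis enzymes, 6 were lower and 0 higher in the tumors by the same rule, with a median log2 ratio of -0.89. The lower ones included Hsd17b7 at -2.03, Cyp51 at -1.90, Sc5d at -1.65 and Mvk, mevalonate kinase, at -1.12. Also lower was Msmo1 at -1.78. Against the trend, Ebp, a sterol isomerase, was higher at 0.92 (limma adjusted p = 0.000154), short of the size asked of a call. Pmvk and Mvd, the mevalonate-phosphate enzymes, were at 0.03 and 0.02 with adjusted p-values of 0.769 and 0.796.

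Tumor 313 was the lowest for 8 of these 13 enzymes. None of the 13 passed the test between the days. Their differences of day 15 minus day 10 were above 0 in 12, and in 0 under median centring. The median difference of all genes tested was 0.024, and -0.30 under median centring.

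Of 5 tested genes of the isoprenoid branch, which leads away from sterols at farnesyl diphosphate, 2 were lower and 1 was higher than the reference. Ggps1, which makes geranylgeranyl diphosphate, was at -1.11 and Pdss1, of the ubiquinone side chain, at -1.27. Dhdds, of the dolichol side, was at 1.20 and lost its call under median centring and with the scanner's processed signals. Of 6 genes that control SREBP, 1 was called, Mbtps2, the protease of the second cut, at -1.50. Srebf1 was at -0.17, and Scap, the sterol-sensing escort of SREBP, at -0.08, neither with an adjusted p under 0.05. Insig2 at -0.55, Insig1 at -0.30 and Mbtps1 at 0.53 had a limma adjusted p under 0.05 but were short of the size asked of a call.

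Genes of uptake and trafficking, none of which is among the 8, did not share the direction of the 8 as a group. Of 11 uptake and trafficking genes, 4 were higher and 2 lower than the reference, with a median of 0.47 that was -0.29 under median centring. Without tumor 313, 0 were lower. The higher ones were Lrp1 at 3.54, Mylip at 3.49, Npc2 at 2.82 and Lipa, the lysosomal acid lipase, at 1.82. Mylip encodes a ubiquitin ligase that limits sterol uptake. Stard4, a sterol carrier, was among the lower ones at -1.09.

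Genes of efflux and storage went the other way. Of 10 such genes, 8 were higher than the reference and 0 lower, with a median of 2.79, among them Soat1, which esterifies cholesterol, at 5.83, Abcg1, an exporter, at 4.74 and Nr1h3, the liver X receptor alpha, at 3.0. Apoe was at 3.14 and Abca1 at 2.57. In tumor 313, where most of the 8 genes were lowest, 6 of these 10 were highest, as were 34.5% of all genes. Macrophages express several of these genes, and the macrophage markers were all higher than the reference, with a median of 5.28. Their part in these values was not tested. The probes of Mbtps2, Stard4, Lipa and Apoe lay in the lost area of tumor 312, and with it left out the counts of these lists were the same.

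**Figure D4:**
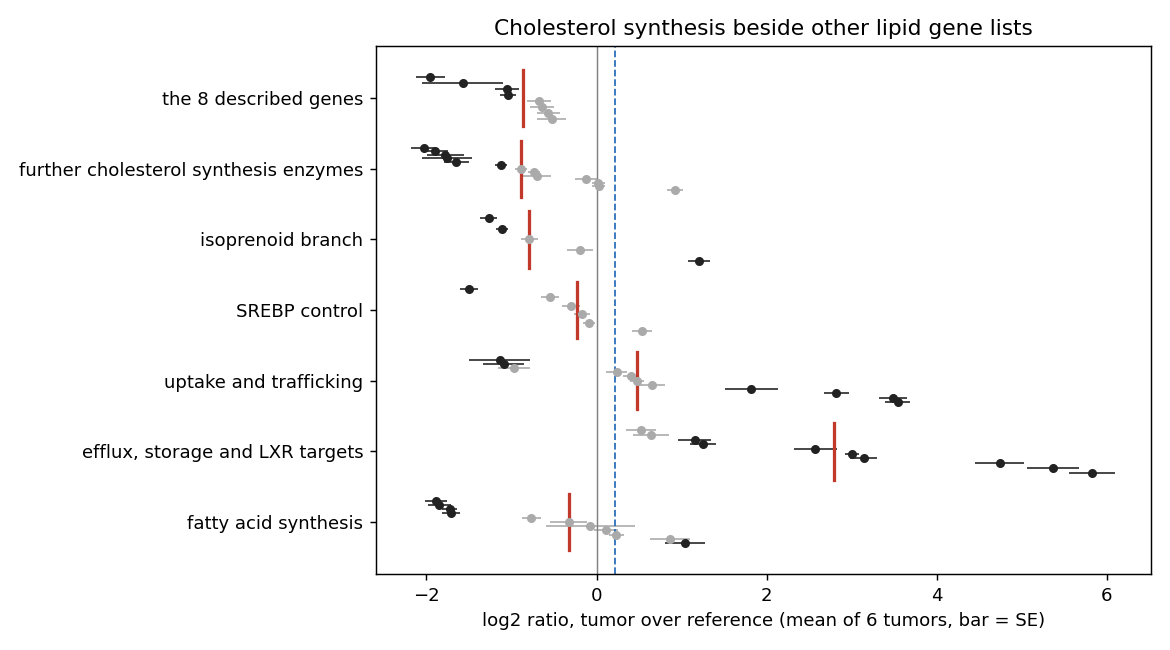
Mean log2 ratio of tumor over reference with its standard error for each gene of 7 lists, called genes in black and others in grey, the list's median as a red bar and the median of all genes tested as a dashed line at 0.22. The 8 genes and the further enzymes sit mostly left of 0, with medians of -0.86 and -0.89, and the efflux and storage genes right of it.

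Fatty acid synthesis, the other lipid route under SREBP control, differed in its profile. Of 11 tested genes, 4 were lower than the reference (Me1 at -1.88, Elovl6 at -1.85, Scd2 at -1.73 and Fads2 at -1.71) and Acacb was higher at 1.04 from a probe in the lost area. That call was lost without tumor 313, with no background correction and under median centring. Of these, 0 were lowest and 9 highest in tumor 313. The day differences of all 11 were above 0 (6 under median centring), where the median of all genes was 0.024 (-0.30 under median centring). None passed the adjustment, with Fasn, fatty acid synthase, at a difference of 1.58 (limma unadjusted p = 0.00983). Adipocyte markers had medians of 5.02, 5.06 and 0.87 in day 15 tumors 303, 313 and 318, and of 2.53, 2.65 and 1.02 in day 10 tumors 302, 307 and 312, and their part in these values was not tested.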

How the data were processed

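Total RNA of 6 tumors was measured on 2-colour Agilent arrays, 1 per tumor. Per the labels, Cy5 carried tumor RNA and Cy3 the reference. Spots were read with Agilent Feature Extraction 9.1.3.1, per the submitters' processing notes. Its deposited files hold mean and background intensity per spot and dye, not normalized by the authors. The authors' deposited value table holds log10 ratios that differed by 0 from the scanner log ratio, with a median of 0 per array. Its direction is thus Cy5 over Cy3.

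In limma 3.58.1 (R 4.3.3), intensities were corrected with normexp (offset 50) and loess within arrays, with control and outlier spots at weight 0 and then left out. Probes well above background on at least 3 of 6 arrays, in either dye (reference) or in Cy5 (days), were fitted with lmFit and eBayes, 2-sided. A gene was represented by its brightest probe. Channel signals were scaled with Aquantile. Probes were named through a RefSeq table (GRCm38.p6), 23374 by accession. Of each further list, up to 4 genes called against the reference with the smallest p were to be named, or the 2 of smallest p where none was called; other names were chosen after their values were seen. Alternatives changed the background correction, normalization, filter, probe choice and tumors used. Motifs were searched on both strands. Scripts were tested on simulated data. The members and lists were chosen with earlier results of these data known. Some genes of the further lists are not reported by name here, though the lists' counts include them.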

Additional observations from a re-analysis of the deposited data

Results flagged for a closer look

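Sqle in tumor 313 lay far from the other tumors, with a log2 ratio of -3.68 against -1.46 to -0.56 in the 4 others with a value. The gap to the nearest tumor was 0.713 of the whole range, barely past the limit for 5 values. Chance alone marks about 1 in 20 genes in this way, and 8 genes were looked at, so 1 mark among them can arise by chance.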

How the results depend on the processing

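No paired analysis was possible because the tumor numbers are not shared between the days. The count of the 8 genes lower than the reference was 8 under median centring and ranged from 2 to 4 over the fits that each left out 1 tumor. Probes lower than the reference over the whole array numbered 2642 and those higher 5350, beside 6873 and 4182 under median centring, 5929 and 5760 with the scanner's processed signals and 5924 and 5765 with the value table. Averaging the probes of a gene gave 1498 genes lower and 3933 higher. Between the days, 2 probes were higher at day 15 and 8 lower. The higher count was 1 under median centring, with processed signals, with the value table and with probes above background on all 6 arrays, and 0 with Cy5 alone and with the position on the slide as a block. The lower count was 0 with all 6 arrays and with Cy5 alone and 5 with the block. Without 1 tumor, 4 to 31 probes were lower, the most without tumor 307, and 0 to 8 higher, the most without tumor 318. Some differences between the days that were not called changed sign. Under median centring they were -0.019 for Hmgcs1, -0.087 for Idi1, -0.17 for Fdps and -0.15 for Srebf2, where the median of all genes was -0.30. With probes averaged, Fdps was at -0.010 and Srebf2 at -0.0075. Fdft1 was at 0.11 without the lost area and at 1.35 with Cy5 alone, where the lost area lowers tumor 312. Over the fits that each left out 1 tumor, the difference ranged from -0.32 to 0.11 for Fdft1, from -0.89 to 0.67 for Sqle and from -0.29 to 0.082 for Lss, and turned above 0 without tumor 313 in all 3 and without tumor 312 in Fdft1 and Lss. The cause of the other changes was not tested. Depth limits 1 Fdft1 probe and 1 Srebf2 probe, whose signal was too close to background. In no fit did a member pass the adjusted threshold between the days.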
